A study of Mus musculus with 12 samples.

Results

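The 8 genes described here encode enzymes of cholesterol synthesis and a sterol sensor, and were chosen by symbol: Hmgcs1, Idi1, Fdps, Fdft1, Sqle, Lss, Sc4mol and Insig1. Sc4mol is the older symbol of Msmo1. All 8 have a row among the 23420 gene symbols measured. RNA came from mouse epidermis, from cells sorted for CD45, CD11b and MHCII and against CD3, a gate that takes in Langerhans cells, which present antigen, and other myeloid cells. The groups were Cbfβ2 knockout at 1.5 months after birth (1.5M KO), wild type at 1.5 months (1.5M wt), Cbfβ2 knockout at day 5 after birth (P5 KO) and wild type at day 5 (P5 wt), with 3 libraries of 100 cells each. Cbfβ2 is 1 of the splice forms of Cbfβ, the partner of Runx transcription factors. Strain, sex and the tissue range of the deletion are not in the labels. Libraries within a group are labelled as independent preparations, and whether they came from separate animals is not said. The p-values therefore measure the spread between these libraries, which may be technical.

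Animal cells build cholesterol from acetyl-CoA. The mevalonate steps make isoprenoid units, which are joined into squalene, closed into lanosterol and trimmed to cholesterol. When sterol in the membrane of the endoplasmic reticulum is low, Scap carries the transcription factor SREBP2 to the Golgi for cleavage, and the freed factor switches on the genes of the pathway. When sterol is high, Insig proteins hold Scap back. The sterol regulatory element (SRE) is the promoter motif that SREBP binds, and the factor NF-Y, which binds CCAAT, is a known partner at such promoters.

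RefSeq promoter windows, 250 bases before and 50 after a start site on build GRCm38.p6, were matched for 5 of the 8 genes. The SRE was searched as TCACNCCAC and the NF-Y box as CCAAT, both on either strand. The window of Hmgcs1, the gene whose difference between groups passed the test, is shown with that of Idi1, whose adult groups did not overlap either, and that of the sensor Insig1. Capitals mark the SRE, a run of 9 bases, and the NF-Y boxes, runs of 5 bases reading CCAAT or ATTGG, on the strand of the gene.
Hmgcs1, chr13:119690101-119690400, plus strand: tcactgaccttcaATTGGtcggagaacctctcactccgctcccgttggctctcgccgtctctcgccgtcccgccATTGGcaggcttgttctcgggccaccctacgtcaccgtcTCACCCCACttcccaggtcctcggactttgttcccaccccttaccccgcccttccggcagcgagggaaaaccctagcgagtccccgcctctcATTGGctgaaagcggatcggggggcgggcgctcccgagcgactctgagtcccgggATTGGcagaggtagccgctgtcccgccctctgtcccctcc
Idi1, chr13:8885356-8885655, plus strand: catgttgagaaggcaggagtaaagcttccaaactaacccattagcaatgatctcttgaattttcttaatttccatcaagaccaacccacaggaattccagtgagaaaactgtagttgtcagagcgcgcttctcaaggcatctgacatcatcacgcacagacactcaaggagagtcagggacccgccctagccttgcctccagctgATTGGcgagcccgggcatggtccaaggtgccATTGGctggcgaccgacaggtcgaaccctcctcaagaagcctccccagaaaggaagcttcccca
Insig1, chr5:28071162-28071461, plus strand: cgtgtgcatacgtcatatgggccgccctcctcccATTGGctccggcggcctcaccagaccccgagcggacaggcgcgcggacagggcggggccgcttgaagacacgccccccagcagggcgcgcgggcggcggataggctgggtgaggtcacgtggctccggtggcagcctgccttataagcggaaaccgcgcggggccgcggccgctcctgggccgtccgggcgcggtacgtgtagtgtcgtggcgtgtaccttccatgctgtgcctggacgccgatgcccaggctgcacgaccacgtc
Of the 5 windows only that of Hmgcs1 held the SRE letters, with the first base 137 bases before the start site. The same letters occur in 1.24% of 32544 distinct promoter windows of that length. The shorter core CACNCCAC, which lies within the SRE letters, also matched the Insig1 window on the reverse strand, 9 bases before the start site and not in capitals, and occurs in 6.23% of the same set. All 5 windows held at least 1 NF-Y box, against 37.4% of the same set, with 4 in Hmgcs1, 3 in Sc4mol, 2 in Idi1 and 1 each in Insig1 and Lss. A match of letters does not show that a factor binds there, and a window without a match says nothing of binding elsewhere.

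Values are molecule counts that the authors scaled to the same total of 37092 in every library. The worth of 1 molecule gave the depth, which was 74620 to 77419 molecules per library in 1.5M KO and 40254 to 51848 in 1.5M wt. The P5 KO libraries held 30913 to 51001 molecules and the P5 wt libraries 34192 to 52208. The genes of the sort gate Ptprc (CD45), Itgam (CD11b) and H2-Ab1 (MHC class II) were above 0 in all 12 libraries. Cd3e and Cd3g were at 0 in all 12, and Cd3d was seen as 1 molecule in 1 P5 KO library. Cbfb, the gene of the deleted form, was 0.99 to 2.40 in 1.5M KO and 7.15 to 13.8 in 1.5M wt, and at day 5 it was 1.45 to 3.63 in the knockout and 3.91 to 4.97 in the wild type. These are counts over the gene and do not separate the Cbfβ2 form.

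The pathway was sampled thinly. Over all 12 libraries Hmgcs1 had 70 molecules, Sc4mol 48, Fdps 44, Idi1 30, Insig1 29, Fdft1 26, Sqle 17 and Lss 3. A library held between 7 and 44 molecules of the 8 genes together. Fold changes below are of log2(scaled count + 1), which understates the change of genes as low as these. All 8 were above 0 in at least 3 of the 12 libraries and so entered the limma fit with 10023 genes tested. Their adjusted p-values are limma's, with Benjamini-Hochberg adjustment over those genes. A group without a molecule could still hold up to 3, or a mean of 0.485 scaled counts in the adult knockout and 0.831 in the adult wild type, and of 0.907 in the day 5 knockout and 0.895 in the day 5 wild type, a limit that covers counting error only.

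**Figure D1:**
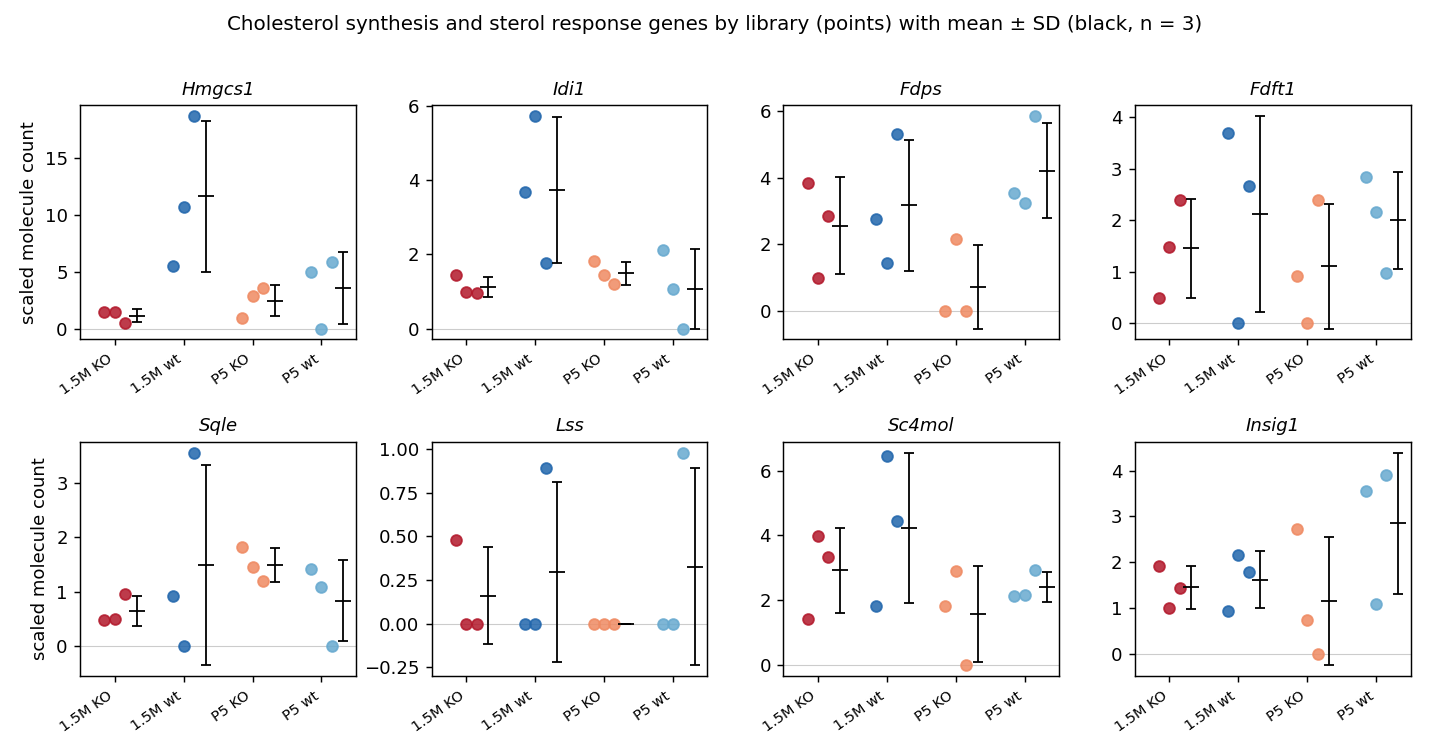
Scaled molecule count of each of the 8 genes in every library (points) with the mean and SD of 3 libraries (black), by group from 1.5M KO to P5 wt. In the Hmgcs1 panel the 1.5M KO libraries lie between 0.48 and 1.49 and the 1.5M wt libraries between 5.53 and 18.7.

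What the loss of Cbfβ2 does to the pathway in adult epidermal cells was read from 1.5M KO against 1.5M wt. Hmgcs1 fell in the adult knockout, and the other 7 genes did not pass the test. Hmgcs1 encodes the cytosolic HMG-CoA synthase, an early enzyme of the mevalonate steps, and lies on chromosome 13 from 119690379 to 119708260 (mm10, plus strand). Its scaled count was 1.44, 1.49 and 0.48 in the 1.5M KO libraries, from 3, 3 and 1 molecules, against 5.53, 10.7 and 18.7 in the 1.5M wt libraries, from 6, 15 and 21 molecules. Every knockout library was below every wild-type library. It averaged 1.14 ± 0.57 in the adult knockout and 11.6 ± 6.61 in the adult wild type (SD, n = 3 each), a ratio of 0.0976. The log2 fold change was −2.46 (SE 0.59, 95% interval −3.69 to −1.24, adjusted p = 0.0122 by limma). Leaving out 1.5M wt library 3 ended the call (adjusted p = 0.0949), as did a pseudocount of 0.1 (0.162), keeping genes of any level (0.254) and thinning every library to the same depth (0.114). The fold change was −0.91 with a pseudocount of 10 (adjusted p = 0.00368). Over the 14 alternatives the adjusted p ran from 0.00368 to 0.254, and the fold change was negative in each.

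Idi1, the isomerase that makes dimethylallyl diphosphate (chromosome 13, 8885501 to 8892451, plus strand), had adult groups that did not overlap either. It stood at 1.44, 0.99 and 0.96 in 1.5M KO and at 3.69, 5.72 and 1.78 in 1.5M wt. The difference did not pass (log2 fold change −1.07, SE 0.49, 95% interval −2.09 to −0.04, adjusted p = 0.306 by limma). Its near relative Idi2 was at 0 in all libraries. Fdps, which joins the units into farnesyl diphosphate (chromosome 3, 89093588 to 89101959, minus strand), was 3.84, 0.99 and 2.87 in 1.5M KO against 2.76, 1.43 and 5.33 in 1.5M wt. These ranges overlapped, with a fold change of −0.21 (95% interval −1.29 to 0.87).

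The enzymes from squalene onward did not differ beyond the spread of the adult libraries. Fdft1, squalene synthase (chromosome 14, 63145150 to 63179578, minus strand), was 0.48, 1.49 and 2.40 in 1.5M KO against 3.69, 0 and 2.67 in 1.5M wt. It overlaps Ctsb on the opposite strand, and since the use of strand in counting is not given, reads of the pair may not be told apart. Sqle, the squalene epoxidase (chromosome 15, 59315077 to 59331192, plus strand), was 0.48, 0.50 and 0.96 in 1.5M KO against 0.92, 0 and 3.55 in 1.5M wt. Sc4mol, the sterol C4-methyl oxidase (chromosome 8, 64718139 to 64733792, minus strand), was 1.44, 3.98 and 3.35 in 1.5M KO against 1.84, 6.44 and 4.44 in 1.5M wt. In these 3 genes the groups overlapped. Their 95% intervals, −1.38 to 1.08 for Fdft1, −1.47 to 0.79 for Sqle and −1.43 to 0.68 for Sc4mol, leave room for a log2 change beyond −1 in the knockout. Lss, lanosterol synthase (chromosome 10, 76531588 to 76557138, plus strand), was seen as 1 molecule in 1.5M KO and 1 in 1.5M wt, so no difference was detectable at this depth.

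Insig1, the sterol sensor that retains Scap (chromosome 5, 28071363 to 28078662, plus strand), was 1.92, 0.99 and 1.44 in 1.5M KO against 0.92, 2.15 and 1.78 in 1.5M wt. The ranges overlapped, and the fold change was −0.08 (95% interval −1.16 to 1.0, adjusted p = 0.984 by limma).

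In the adult comparison limma thus called 1 of the 8 genes lower and 0 higher, where 5.28% of all genes tested were called, 2.04% lower and 3.24% higher. All 8 fold changes were below 0, with a median of −0.27 against 0.09 over all genes tested. The signs of Fdps, Fdft1 and Insig1 turned under thinning to the same depth. Groups did not overlap for 2 of the 8, both lower in 1.5M KO, against 7.18% of all genes in that direction and 13.9% in the other. The same 2 had an unadjusted p under 0.05, against 14.9% of all genes. The summed level of the 8 was 11.5, 10.4 and 12.5 in the 1.5M KO libraries and 19.4, 26.5 and 39.1 in the 1.5M wt libraries. Without Hmgcs1 the sums were 10.1, 8.95 and 12 in 1.5M KO against 13.8, 15.7 and 20.4 in 1.5M wt, again with no overlap.

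Other measures differed between the same adult libraries, and their part in the lower Hmgcs1 and in the other adult calls given below was not tested. The 1.5M KO libraries were deeper. The 6 Langerhans cell markers summed to 29.8 to 42.2 in 1.5M KO and 324 to 407 in 1.5M wt, with 5 of 6 called lower and none at 0 in either group. The 10 macrophage and monocyte markers in the table summed to 605 to 733 in 1.5M KO and 69.4 to 90.6 in 1.5M wt, with 6 of 9 tested called higher, 1 at 0 in 1.5M KO and 4 at 0 in 1.5M wt. Keratinocyte markers, from a cell type that makes much sterol for the skin barrier, overlapped at 9.10 to 20.1 in 1.5M KO and 8.94 to 36.9 in 1.5M wt, with 0 of 11 called by limma. The 3 wild-type libraries with Hmgcs1 at 5.53, 10.7 and 18.7 had Langerhans cell sums of 324, 350 and 407, macrophage and monocyte sums of 83.9, 69.4 and 90.6 and keratinocyte sums of 36.9, 8.94 and 22.2. In such bulk samples fewer cells that express a gene and less RNA per cell cannot be told apart.

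**Figure D2:**
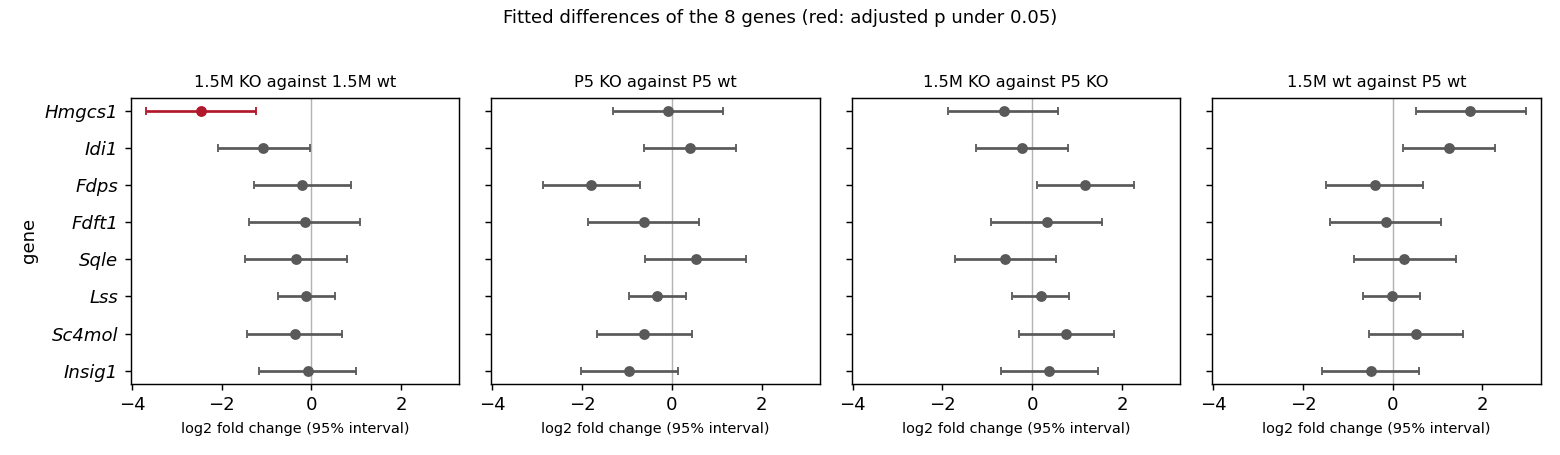
Fitted log2 fold change with its 95% interval for each of the 8 genes in 4 comparisons, the first-named group over the second. The Hmgcs1 value of −2.46 in 1.5M KO against 1.5M wt is marked red as past the threshold, and the other intervals shown belong to differences that did not pass.

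At day 5 the same question was put to P5 KO against P5 wt, and limma called 0 of the 8 genes, with 1 at an unadjusted p under 0.05. Of all genes 1.80% were called, 1.15% higher and 0.649% lower, and 12.8% had an unadjusted p under 0.05. Fdps was that 1 gene. It was at 0, 2.18 and 0 in P5 KO against 3.55, 3.25 and 5.86 in P5 wt, from 3 molecules in all against 14. The groups did not overlap, as in 6.02% of all genes in that direction and 6.23% in the other. The fold change of −1.79 (SE 0.52, 95% interval −2.88 to −0.71) had an adjusted p of 0.0891 by limma, and 0.0321 without P5 KO library 2, the one P5 KO library with Fdps molecules.

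Hmgcs1 had overlapping ranges at day 5, with 0.91, 2.91 and 3.60 in P5 KO and 4.97, 0 and 5.86 in P5 wt. P5 wt library 2, which had no Hmgcs1 molecule, was the second shallowest of the 12. The fold change was −0.09 (95% interval −1.31 to 1.14), and it turned to 0.63 with a pseudocount of 0.1. Insig1 was 2.72, 0.73 and 0 in P5 KO against 3.55, 1.08 and 3.91 in P5 wt (−0.95, 95% interval −2.03 to 0.13, adjusted p = 0.468 by limma).

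The remaining 5 genes also overlapped between the day 5 groups. Idi1 was 1.82, 1.45 and 1.20 in P5 KO against 2.13, 1.08 and 0 in P5 wt, and Sqle had the same 3 values in P5 KO against 1.42, 1.08 and 0 in P5 wt. Fdft1 averaged 1.10 ± 1.21 in P5 KO and 2.0 ± 0.94 in P5 wt, and Sc4mol 1.58 ± 1.47 in P5 KO and 2.41 ± 0.45 in P5 wt (SD, n = 3 each). Lss had no molecule in P5 KO and 1 in P5 wt. Over the 8 genes 6 fold changes were below 0, with a median of −0.47 against −0.01 over all genes tested. The keratinocyte sum was 223 to 686 in P5 KO and 66.4 to 88.4 in P5 wt, with 4 of 11 markers called higher and none at 0. The neutrophil sum was 42.9 to 228 in P5 KO and 0 to 3.91 in P5 wt, with both of the 2 tested called higher, and of 7 markers 2 at 0 in P5 KO and 5 in P5 wt. The erythroid sum was 0.40 to 234 in P5 KO and 0 to 2.84 in P5 wt, with 1 of 3 tested called higher, and of 4 markers none at 0 in P5 KO and 2 in P5 wt. Without the P5 KO libraries no neutrophil or erythroid marker was above 0 in 3 libraries. Those tested thus entered the test through P5 KO, where they were high, so their counts of calls were favoured in advance. Macrophage and monocyte markers summed to 211 to 254 in P5 KO and 166 to 212 in P5 wt, with 2 of 9 tested called higher. Langerhans cell markers summed to 11.1 to 16.8 in P5 KO, where Cd207 was at 0, and to 59.7 to 72.3 in P5 wt, with 5 of 6 called lower. The part of these measures in the day 5 values was not tested.

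Change with age was read within each genotype, and these comparisons share libraries with the ones above. In wild type, Hmgcs1 averaged 11.6 ± 6.61 at 1.5M and 3.61 ± 3.16 at P5 (SD, n = 3 each). The lowest 1.5M wt library, at 5.53, lay under the highest P5 wt library, at 5.86. The fold change was 1.73 (SE 0.59, 95% interval 0.51 to 2.96), with an adjusted p of 0.0989 by limma. Idi1 averaged 3.73 ± 1.97 in 1.5M wt and 1.07 ± 1.07 in P5 wt (1.25, SE 0.49, adjusted p = 0.171). Limma called 0 of the 8 in wild type with age and 2 at an unadjusted p under 0.05. Of all genes 5.21% were called, 2.36% higher and 2.84% lower, and 18.2% had an unadjusted p under 0.05. No member had groups that did not overlap, against 6.06% of all genes higher and 13.2% lower in 1.5M wt. Between the same libraries 3 of 6 Langerhans cell markers were called higher in 1.5M wt, and 6 of 9 macrophage and monocyte markers and 3 of 11 keratinocyte markers lower. Their part in the values with age was not tested.

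In the knockout, Hmgcs1 averaged 1.14 ± 0.57 at 1.5M and 2.47 ± 1.40 at P5, with overlapping ranges (−0.64, 95% interval −1.87 to 0.58). Fdps averaged 2.57 ± 1.45 in 1.5M KO and 0.73 ± 1.26 in P5 KO (1.18, SE 0.52, adjusted p = 0.292 by limma). Sqle was 0.48, 0.50 and 0.96 in 1.5M KO, below the 1.20 to 1.82 of P5 KO, and was the only one of the 8 whose groups did not overlap with age in the knockout, as in 10% of all genes in that direction and 8.15% in the other (−0.60, adjusted p = 0.717 by limma). Limma called no member here, and 1 had an unadjusted p under 0.05, against 14.2% of all genes. Of all genes 3.14% were called, 1.72% higher and 1.43% lower. Between these libraries 9 of 11 keratinocyte markers, both of the 2 neutrophil markers tested and all 3 erythroid markers tested were called lower in 1.5M KO, and 5 of 9 macrophage and monocyte markers higher. The neutrophil and erythroid markers entered the test through P5 KO, so their counts of calls were favoured in advance. Of the 6 Langerhans cell markers 1 was called higher and 1 lower. Keratinocyte markers summed to 9.10 to 20.1 in 1.5M KO and 223 to 686 in P5 KO, and macrophage and monocyte markers to 605 to 733 in 1.5M KO and 211 to 254 in P5 KO.

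The order of Hmgcs1 from high to low was thus 1.5M wt, P5 wt, P5 KO and 1.5M KO, and no pair of neighbours in that order differed past the threshold. Whether the knockout effect itself differed with age was tested as the effect at 1.5M minus that at P5. For Hmgcs1 this difference was −2.38 (SE 0.84, adjusted p = 0.173 by limma), for Idi1 −1.47 (SE 0.70, adjusted p = 0.367) and for Fdps 1.58 (SE 0.74, adjusted p = 0.356). Limma called 0 of the 8 for this difference, with 3 at an unadjusted p under 0.05, where 13.3% of all genes had one. Of all genes 2.0% were called, 1.32% higher and 0.678% lower. The lower Hmgcs1 of the adult knockout is therefore not shown to be particular to that age.

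The rest of the pathway was read from lists chosen with earlier results of these data known. The 8 mevalonate and isoprenoid genes, which include Hmgcs1, Idi1 and Fdps, had a median fold change of −0.51 in 1.5M KO against 1.5M wt. The median over all genes was 0.09. Limma called 2 of the 8 lower, 1 of them Hmgcs1, and 0 higher, where 2.04% of all genes were called lower and 3.24% higher. The second was Pmvk, phosphomevalonate kinase, at 0.48, 1.49 and 0.96 in 1.5M KO against 11.1, 8.58 and 3.55 in 1.5M wt, from 6 molecules against 28 (−2.06, SE 0.51, adjusted p = 0.0151 by limma). Leaving out 1.5M KO library 1 (adjusted p = 0.0732) or 1.5M wt library 1 (0.112) or 2 (0.0821) ended that call, as did thinning (0.339), a pseudocount of 0.1 (0.159), keeping genes of any level (0.109) and a fit of the 6 libraries alone on the same genes (0.0538). Pmvk was also higher in 1.5M wt than in P5 wt, where it stood at 1.42, 1.08 and 0.98 (1.91, SE 0.51, adjusted p = 0.0278). This second call was lost without any one of 5 libraries, with adjusted p from 0.061 without P5 wt library 1, 0.0683 and 0.077 without P5 wt library 2 and 3, to 0.143 and 0.111 without 1.5M wt library 1 and 2, and under the same 4 settings (0.0913 to 0.224). Mvd, the next step after Pmvk, averaged 0.49 ± 0.01 in 1.5M KO and 0.48 ± 0.83 in 1.5M wt (SD, n = 3 each). These means rest on 3 molecules in 1.5M KO and 2 in 1.5M wt, too few to show a difference or its absence. The 8 genes summed to 9.59, 6.96 and 8.62 in the 1.5M KO libraries against 25.8, 30.0 and 34.7 in the 1.5M wt libraries. These sums include the 2 called genes, with means of 1.14 in 1.5M KO and 11.6 in 1.5M wt for Hmgcs1, and of 0.98 and 7.73 for Pmvk. Of the 8 fold changes 6 were below 0 and 2 above, so the sums do not show a fall of every step.

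**Figure D3:**
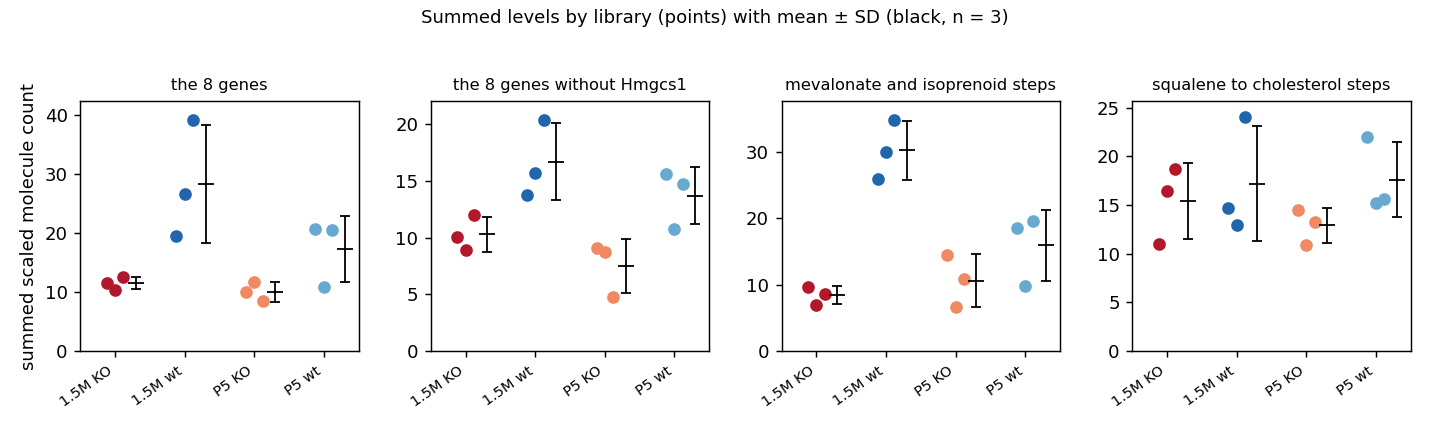
Summed scaled molecule count per library (points, with mean and SD of 3 libraries in black) of the 8 genes, of the 8 without Hmgcs1, of the 8 mevalonate and isoprenoid genes and of the 12 genes from squalene to cholesterol. For the mevalonate and isoprenoid genes, which include the called Hmgcs1 and Pmvk, the 1.5M KO libraries lie between 6.96 and 9.59 and the 1.5M wt libraries between 25.8 and 34.7. For the later steps these groups overlap.

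From squalene to cholesterol, the median fold change at 1.5M was −0.12. Limma called 0 of 11 tested genes, against 5.28% of all genes, and 1 had an unadjusted p under 0.05, against 14.9%. That gene was Cyp51, the lanosterol demethylase, at 1.46 ± 0.48 in 1.5M KO and 3.66 ± 0.79 in 1.5M wt (log2 fold change −0.93, SE 0.42, adjusted p = 0.293). Tm7sf2, a sterol reductase, was at 0 in all 12 libraries. The sums of the 12 genes overlapped, at 11 to 18.7 in 1.5M KO and 12.9 to 24.0 in 1.5M wt.

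Of the 7 genes of sterol sensing, limma called 1 lower in the adult knockout and 0 higher, against 2.04% and 3.24% of all genes. Scap, the carrier of SREBP, was 1.92, 2.98 and 2.87 in 1.5M KO against 9.21, 5.72 and 8.0 in 1.5M wt (−1.26, SE 0.35, adjusted p = 0.037 by limma). The call did not survive leaving out 1.5M KO library 1 (adjusted p = 0.191), 2 (0.0932) or 3 (0.1), or 1.5M wt library 1 (0.161) or 3 (0.125), nor thinning (0.289), a pseudocount of 0.1 (0.0588) or a replicate block (0.0537). Srebf2, the gene of SREBP2, averaged 0.50 ± 0.86 in 1.5M KO and 2.45 ± 1.36 in 1.5M wt (log2 fold change −1.25, SE 0.53, adjusted p = 0.233), and Srebf1 1.95 ± 0.86 in 1.5M KO and 2.48 ± 1.44 in 1.5M wt. Insig2, the relative of Insig1, averaged 2.09 ± 1.53 in 1.5M KO and 0.90 ± 0.89 in 1.5M wt.

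Genes that handle sterol after uptake went in both directions in the adult knockout. Langerhans cell markers and macrophage and monocyte markers also differed between the same adult libraries, and their part in the adult calls here was not tested. Npc2, which hands lysosomal cholesterol to Npc1, was 25.4, 19.9 and 21.1 in 1.5M KO against 8.29, 7.15 and 7.11 in 1.5M wt (1.44, SE 0.23, adjusted p = 0.000252 by limma). Of 6 tested uptake and transport genes it was the 1 called, where 3.24% of all genes were called higher and 2.04% lower. It was also lower in 1.5M wt than in P5 wt, where it was 22.7, 20.6 and 28.3 (−1.54, SE 0.23, adjusted p = 0.000151). Both calls held in all 14 alternatives. Soat1, which esterifies cholesterol for storage, was 4.08, 1.99 and 1.44 in 1.5M KO against 12, 8.58 and 10.2 in 1.5M wt (−1.75, SE 0.44, adjusted p = 0.018). It holds fractional molecules in 1 library of each of these groups, and its call was lost without 1.5M KO library 2 (adjusted p = 0.0691) or 3 (0.105), without 1.5M wt library 1 (0.0845) or 3 (0.0625), after thinning (0.1), with a pseudocount of 0.1 (0.0704) and with genes of any level kept (0.122). Ch25h, the cholesterol 25-hydroxylase, had 4 molecules in each 1.5M KO library and none in 1.5M wt, at least 2.33-fold higher against the limit of 3 molecules over the group (adjusted p = 0.00734 by limma, or 0.0547 with no filter on low genes). Outside 1.5M KO it was above 0 in 1 P5 KO library only. Ch25h thus entered the test through the group where it was high, whose libraries were also deeper, so its call was favoured in advance. Apoe, which carries lipid out of cells, was 2.88, 5.47 and 4.31 in 1.5M KO against 35.9, 24.3 and 32 in 1.5M wt (−2.62, SE 0.32, adjusted p = 6.46e-06). In this efflux and storage list 1 of 8 tested genes, Ch25h, was thus called higher and 2 lower, against 3.24% and 2.04% of all genes. Of the 8, 7 had an unadjusted p under 0.05, against 14.9% of all genes. Groups did not overlap for 4 genes higher in 1.5M KO and 4 lower, against 13.9% and 7.18% of all genes in those directions. The 4 groups of the called genes are shown in the plot of listed genes by library.

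**Figure D4:**
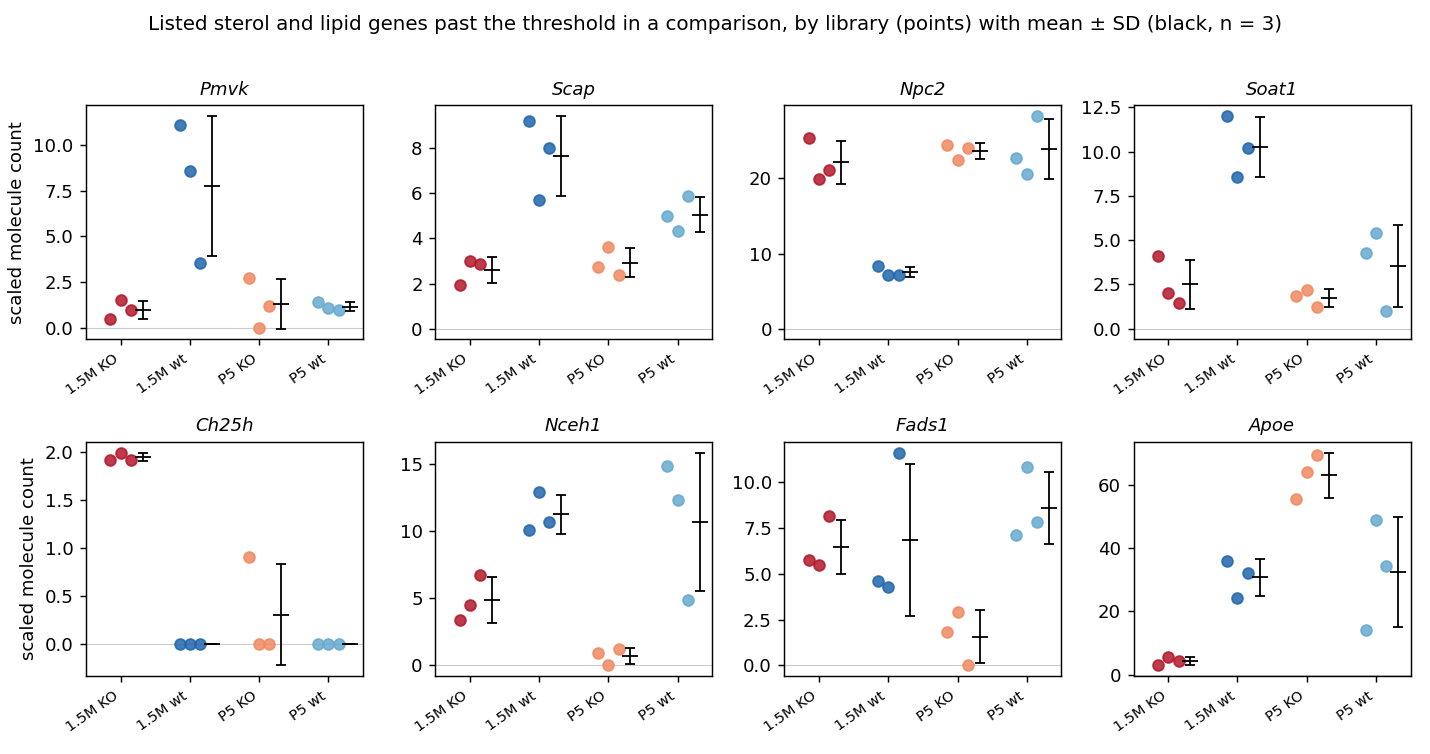
Scaled molecule count by library (points) with mean and SD of 3 libraries (black) for the 8 listed sterol and lipid genes, other than Hmgcs1, that passed the threshold in a comparison. In the Npc2 panel the 1.5M wt libraries lie between 7.11 and 8.29 and the other 3 groups between 19.9 and 28.3.

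At day 5 the lists held 2 called genes, both lower in P5 KO than in P5 wt, out of 46 tested. Of all genes 1.80% were called there, 1.15% higher and 0.649% lower. Nceh1, which hydrolyses stored cholesterol esters in macrophages, was 0.91, 0 and 1.20 in P5 KO against 14.8, 12.3 and 4.88 in P5 wt (−2.73, SE 0.41, adjusted p = 0.000658 by limma), with fractional molecules in 2 P5 wt libraries. The call was kept when any 1 library was left out and lost with genes of any level kept (adjusted p = 0.063) and with its 6 libraries fitted alone on the same genes (0.206). Fads1, a fatty acid desaturase under SREBP control, was 1.82, 2.91 and 0 in P5 KO against 7.10, 10.8 and 7.81 in P5 wt (−2.09, SE 0.45, adjusted p = 0.0171). It was lost without P5 KO library 3 (adjusted p = 0.0862) or P5 wt library 2 (0.0812) or 3 (0.06), after thinning (0.0595), with a pseudocount of 0.1 (0.105), with genes of any level kept (0.231) and with its 6 libraries fitted alone on the same genes (0.28). Both genes were higher in 1.5M KO than in P5 KO, Nceh1 at 3.36, 4.47 and 6.71 (1.82, SE 0.41, adjusted p = 0.0137) and Fads1 at 5.75, 5.47 and 8.14 (1.73, SE 0.45, adjusted p = 0.0342). Nceh1 averaged 4.85 in 1.5M KO and 11.2 in 1.5M wt, without overlap and without passing (−1.10, SE 0.41, adjusted p = 0.159 by limma). The effect at 1.5M minus that at P5 was not called for Nceh1 (1.64, SE 0.58, adjusted p = 0.183 by limma) or Fads1 (2.12, SE 0.64, adjusted p = 0.0976). The age call of Nceh1 was lost without P5 KO library 2 (adjusted p = 0.0754) or 1.5M KO library 3 (0.093), and under 4 settings (0.056 to 0.14). That of Fads1 was lost without P5 KO library 1 (0.0542) or 3 (0.166) or 1.5M KO library 1 (0.071), 2 (0.0674) or 3 (0.149), and under 6 settings (0.0847 to 0.305). The part of the keratinocyte, neutrophil, erythroid and macrophage markers, which moved in the same age comparison, was not tested. Fatty acid genes of SREBP were called at 0 of 6 in the adult comparison by limma, against 5.28% of all genes. Of the 6, 1 had an unadjusted p under 0.05, against 14.9% of all genes.

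Over the 12 libraries the 28 pairs among the 8 genes had a median Pearson r of 0.10 on log2(scaled count + 1), from −0.45 to 0.61, and 16 were above 0. At a few molecules per library such values carry little information, and the libraries share groups and differ in depth. The mean of the 8 standardized profiles, in which Lss with 3 molecules weighs as much as Hmgcs1, was matched to 1197 other genes with a mean of at least 5. The 5 most alike over the 12 libraries were Atp6v1g1 (Pearson r = 0.81), Srsf7 (0.79), Slc38a2 (0.79), Cdh1 (0.79) and Prkcb (0.78). Prkcb, protein kinase C beta, averaged 5.99 ± 0.41 in 1.5M KO and 33.6 ± 6.72 in 1.5M wt, and 1.67 ± 1.08 in the day 5 knockout and 9.02 ± 4.32 in the day 5 wild type (SD, n = 3 each). Cdh1, E-cadherin, averaged 9.47 ± 6.45 in 1.5M KO and 30.6 ± 4.16 in 1.5M wt, and 4.83 ± 2.24 in the day 5 knockout and 23.4 ± 1.47 in the day 5 wild type.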

How the data were processed

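RNA from 100 sorted cells per tube was primed with an oligo-dT primer carrying a molecular barcode, with spike-in RNA in each tube, per the labels' protocols. Per the submitters' processing notes, TopHat2 and build mm10 were used. The annotation, the counting tool, the strand setting and the scaling method are not given in the sources used here. As deposited, the signal is, from the values, a molecule count that the authors scaled to an equal total, with 92.6% to 94.9% of values above 0 whole multiples of 1 step (tolerance 0.01). Because not nearly all values were whole, no count model was used.

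One limma 3.58.1 model (R 4.3.3, mean-variance trend, no covariate) of 4 group means was fitted to log2(value + 1) over 12 libraries and 10023 genes above 0 in at least 3 libraries, for 5 comparisons, two-sided, with Benjamini-Hochberg adjustment and a threshold of 0.05. It was tested on simulated counts with changes set only in genes better sampled than most of the 8 members, so that test does not cover genes as low as these. The plan allowed for counts or normalized values, and the second branch was used. The members, lists and rules were chosen with earlier results of these data known. Genes named were the 8 members, every listed sterol or lipid gene past the threshold and further sterol genes chosen by name, some of which are not reported here. The rule also covered marker genes past the threshold, which are given as sums and counts instead. Alternatives were pseudocounts of 0.1 and 10, no filter, median-of-ratios scaling, thinning to 30865 molecules, fits of 6 libraries, a replicate block and leaving out each library. Positions are from GENCODE M21 and promoters from RefSeq. The overlap of Fdps with Gm43738 on its strand was not resolved.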

Additional observations from a re-analysis of the deposited data

Results flagged for a closer look

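Among the 8 members and the listed sterol and lipid genes, the knockout effect differed between the ages for Npc2 and Apoe by limma's test of the difference itself. For Npc2 the effect at 1.5M minus that at P5 was 1.44 (SE 0.33, adjusted p = 0.0189), with means of 22.1 ± 2.91 in 1.5M KO and 7.52 ± 0.67 in 1.5M wt, and of 23.7 ± 1.02 in P5 KO and 23.9 ± 3.99 in P5 wt (SD, n = 3 each). It missed the threshold without P5 wt library 3 (adjusted p = 0.0618) or 1.5M KO library 1 (0.0708) and after thinning (0.0633). For Apoe the difference was −3.71 (SE 0.45, adjusted p = 2.59e-05), with means of 4.22 ± 1.30 in 1.5M KO and 30.7 ± 5.90 in 1.5M wt, and of 63.0 ± 7.15 in P5 KO and 32.4 ± 17.4 in P5 wt, and it held in all 18 alternatives. Apoe was also lower in 1.5M KO than in P5 KO (−3.64, SE 0.32, adjusted p = 3.84e-07 by limma), a comparison in which the keratinocyte, neutrophil, erythroid and macrophage markers also moved, whose part was not tested. Of the marker genes named, Cd207 also passed this test (−2.02, SE 0.45, adjusted p = 0.0141 by limma), with means of 21.0 ± 3.41 in 1.5M KO and 214 ± 33.7 in 1.5M wt, and of 0 in P5 KO and 1.58 ± 1.19 in P5 wt. Its day 5 effect rested on 5 molecules in P5 wt and none in P5 KO, so the pseudocount limits how large a loss can appear there. The result for Cd207 therefore does not show that its knockout effect changed with age. Cd207 was 1 of 2 Langerhans cell markers, out of 6, called lower for this difference. Of 9 macrophage and monocyte markers tested 6 were called higher, and of 11 keratinocyte markers 0 were called. Both of the 2 neutrophil markers tested were called lower, and these entered the test through P5 KO. Of all genes 1.32% were called higher and 0.678% lower. The part of these marker differences in the Npc2 and Apoe results was not tested.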

How the results depend on the processing

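Hmgcs1 was the 1 member called at 1.5M, and the count of members called there was 0 under a pseudocount of 0.1, when genes of any level were kept and after thinning to the same depth, and 0 to 1 on leaving out 1 library. At P5 it was 0, and 0 to 1 on leaving out 1 library. It did not change for the other 3 comparisons under any alternative. Of the 295 member values under other settings 282 kept their direction and side of the threshold, 3 lost the call and 10 turned in sign, and none of the 10 was called. The turned values were 0.63 (pseudocount of 0.1) and 0.01 (thinning) for Hmgcs1 at P5, 0.12 for Fdps, 0.21 for Insig1 and 0.03 for Fdft1 at 1.5M by thinning, 0.38 for Fdft1 at 1.5M with a pseudocount of 0.1, 0.00 (pseudocount of 10) and 0.11 (thinning) for Fdft1 in 1.5M wt against P5 wt, 0.01 for Lss in the same by median-of-ratios scaling, and −0.02 for Sc4mol in the difference between knockout effects with a pseudocount of 10. Among other genes, Mvd turned to −0.21 and Insig2 to 0.00 at 1.5M by thinning. On leaving out 1 library, values that turned ran from −0.98 to 0.41 for Hmgcs1 and −0.04 to 0.78 for Idi1 at P5, at 1.5M from −0.86 to 0.23 for Sqle, −0.55 to 0.16 for Fdps, −0.84 to 0.28 for Fdft1, −0.29 to 0.07 for Insig1, −0.07 to 0.57 for Mvd and −0.58 to 0.08 for Srebf1, in 1.5M wt against P5 wt from −0.31 to 0.79 for Sqle, −0.59 to 0.52 for Fdft1 and −0.19 to 0.13 for Lss, in 1.5M KO against P5 KO from −0.13 to 0.75 for Fdft1 and −0.07 to 0.88 for Insig1, and in the difference between knockout effects from −0.21 to 0.91 for Fdft1 and −0.34 to 0.64 for Sc4mol. The cause was not tested.

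All genes called at P5 numbered 180, against 92 with a pseudocount of 0.1, 21 with no filter, 91 after thinning, 72 to 123 on leaving out 1 library, 123 with its 6 libraries fitted alone and 0 when that fit kept the 10023 genes, an alternative chosen after seeing the data. The 529 of 1.5M KO against 1.5M wt became 310 with no filter and 349 after thinning, the 522 of 1.5M wt against P5 wt 240, 273 and 111 (6 libraries, same genes) and 346 to 389 on leaving out 1 library, the 315 of 1.5M KO against P5 KO 150, 198, 86 and 169 to 246, and the 200 of the difference 133 with a pseudocount of 0.1, 107 and 109. In 1.5M wt against P5 wt 45.4% of calls were higher, and 61.0% by median-of-ratios scaling, where the median of all genes moved to −0.11, against −0.22. Deviations from group means correlated at −0.0171 to 0.0226 between libraries of the same number and at −0.0197 to 0.0226 between the others. Counting error at a few molecules per gene could hold such values near 0 in paired libraries too, so this does not settle whether the replicate numbers pair them. With the replicate block Hmgcs1 at 1.5M had an adjusted p of 0.0106 by limma, Scap 0.0537, and 508 genes were called. Lss gave no value where it failed the filter, and the difference between knockout effects has no fit of 6 libraries. Between 3 and 70 molecules per gene over 12 libraries limit what each member can show.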
